A study of Mus musculus with 12 samples.

Results

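The nuclear-encoded subunits of the respiratory chain and the ATP synthase were followed in normal and leukemic mouse bone marrow cells. Gene symbols beginning Nduf (a, b, c, s or v with a number), Sdh, Uqcr, Cox4 to Cox8 or Atp5, with Cyc1 and Cycs, were taken from a table of 24107 genes when their mean over all libraries was at least 1 FPKM (reads scaled by gene length and library size). Of 85 matching symbols 78 met that level. They comprised 35 genes of complex I, 4 of complex II, 9 of complex III, cytochrome c, 13 of complex IV and 16 of complex V, and all 78 passed the filter of the test. The other 7 were Cox4i2, Cox6a2, Cox7a1, Cox7b2, Cox8b, Cox8c and Ndufa4l2. Cox7a1 lay just below the limit, at a mean of 0.614 FPKM, and Atp5g2 just above it, at 1.17. Ndufa4 was counted with complex IV, where its protein resides. Atp5s matched by its name, although its product is not a subunit of the synthase.

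RNA was sequenced from 12 libraries of C57BL/6 cells, 3 in each of 4 groups. Wild-type mice gave control MEP (megakaryocyte-erythroid progenitors, which give rise to platelets and red cells) and control whole marrow. Recipient mice with leukemia gave leukemic MEP and GFP+ marrow cells, both of genotype Prdm16s. Marrow was selected for GFP in the leukemic group and taken whole in the control group. The genotype, the leukemia and being a recipient cannot be told apart. Whether the 3 libraries of a group are 3 mice is not in the labels, and the tests below therefore weigh changes against library spread, which may be technical.

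Complex I takes electrons from NADH and complex II from succinate. Ubiquinone carries them to complex III, and cytochrome c carries them on to complex IV, which reduces oxygen. Complexes I, III and IV pump protons across the inner mitochondrial membrane, and complex V, the ATP synthase, uses their return to make ATP. Most subunits are encoded in the nucleus and a few in mitochondrial DNA, and none of the latter are among the genes analysed here. In the red cell lineage mitochondria also make haem, and they are lost as red cells mature.

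The whole reads behind the FPKM values came to 6.72 to 9.71 M in 10 libraries, 0.572 M in leukemic MEP 3 and 1.15 M in GFP+ marrow 2. Prdm16, the gene named in the genotype, ran from 0.363 to 0.957 FPKM over the 6 control libraries and from 6.35 to 15.3 over the 6 leukemic ones. Leukemic MEP 3 stood apart from its group. Its 8 granulocyte markers, all in the table, summed to 86597 FPKM, against 877 and 2230 in leukemic MEP 1 and 2, 25.1 to 358 for control MEP and a range of 61567 to 118266 over 6 marrow libraries. Its 5 monocyte markers summed to 1555 FPKM, against 38.1 and 32.3 in leukemic MEP 1 and 2. The 8 erythroid markers summed to 1612 to 2113 FPKM in control MEP and 612, 513 and 130 in leukemic MEP, and Slc4a1 was at 0 in leukemic MEP 2 and 3 as well as control MEP 1. The 7 megakaryocyte markers summed to 15.5 to 126 FPKM in control MEP and 5604, 4619 and 289 in leukemic MEP, with Ppbp at 0 in control MEP 1. Values without leukemic MEP 3 are given beside the results that it moved most.

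Subunit genes were among the abundant transcripts of every group. The members summed to 20022, 40953 and 32863 FPKM in control MEP and to 23499, 22562 and 13153 in leukemic MEP. They summed to 16212, 25677 and 22743 in control marrow and to 23404, 19708 and 18073 in GFP+ marrow. Control MEP had the highest mean and the widest spread, and its replicate 1 lay below leukemic MEP 1 and 2, control marrow 2 and 3 and GFP+ marrow 1. As a share of all FPKM this was 6.80% ± 1.55 (SD, n = 3) for control MEP, 4.54% ± 1.58 for leukemic MEP, 4.21% ± 0.71 for control marrow and 3.41% ± 0.48 for GFP+ marrow. The mean sum of leukemic MEP was 0.631 times that of control MEP, and the ratio of GFP+ to control marrow was 0.947. Without leukemic MEP 3 the ratio in MEP was 0.736 and the mean share of leukemic MEP 5.46%. In bulk RNA, fewer cells of a type and less RNA per cell cannot be told apart.

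Member means over the 12 libraries ran from 1.17 to 1142 FPKM with a median of 257. The same 5 genes led in control MEP and in GFP+ marrow. They were Atp5b, the catalytic beta subunit of the synthase, Cox6b1, Cox4i1 and Ndufa4 of complex IV, and Uqcrc1, a core protein of complex III. In control MEP their levels were 1767 ± 132, 1350 ± 664, 1303 ± 498, 1063 ± 486 and 1084 ± 132 FPKM. Spread was small for Atp5b and Uqcrc1 and wide for the 3 genes of complex IV, so neighbours in this order did not differ beyond their spread. Atp5g2, a gene for the c subunit of the synthase ring, and Cycs were lowest in every group, with 0.895 ± 0.879 and 3.43 ± 0.557 FPKM in control MEP.

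**Figure D1:**
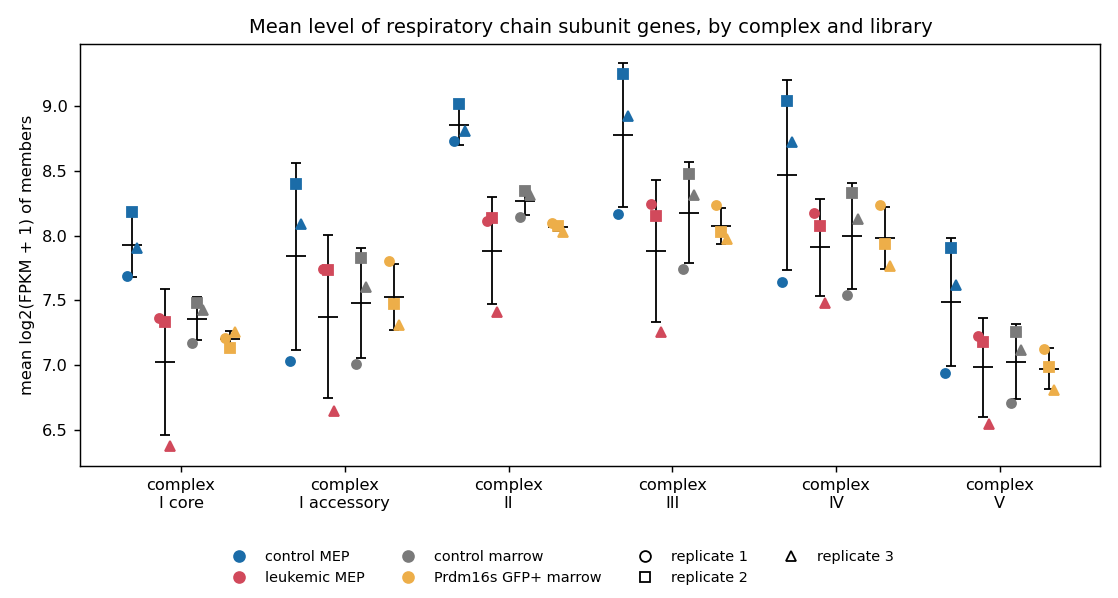
Mean log2(FPKM + 1) of the members of each complex in each library; symbols are replicates, horizontal lines the mean and bars the SD of 3 libraries. Only in the core of complex I and in complex II did all 3 control MEP libraries (8.73 to 9.02 for complex II) lie above all 3 leukemic MEP libraries (7.41 to 8.14); in the other classes control MEP 1 lay within the leukemic range.

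The leukemic progenitors were set against their normal counterparts. In all, 17 of 78 members were lower in leukemic MEP and 0 were higher, at a Benjamini-Hochberg adjusted p below 0.05 over 11462 genes (limma). Among all genes tested 12.3% were lower and 13.7% higher. The median change of the members was -0.64 on the log2(FPKM + 1) scale, which slightly understates the change of low genes, against 0.02 for all genes, and 71 of 78 point estimates were negative. For 21 members every leukemic library lay below every control library, which was so for 19.7% of all genes tested.

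The lower members came from every complex but not evenly. They were 3 of 4 genes of complex II, 4 of 9 of complex III, 5 of 35 of complex I, 4 of 16 of complex V and 1 of 13 of complex IV. Median changes were -0.94 for complex II, -0.92 for complex III, -0.69 for complex I and -0.54 for both complex IV and complex V. The median SE was 0.24, 0.41, 0.40, 0.40 and 0.35 in the same order, so equal changes were more readily called in complex II. Of members of at least 1 kb 14 of 28 were lower, and of shorter members 3 of 50. The part of SE and gene length in the uneven counts was not tested. Without leukemic MEP 3 the count was 13, against 12.1% lower of all genes in that fit, and the median of all members was -0.30, with medians of -0.71, -0.45, -0.16, -0.30 and -0.31 in the same order of complexes. The summed erythroid markers were lower in all 3 leukemic libraries than in any control MEP library. The megakaryocyte and granulocyte sums were higher in all 3, the granulocyte sum most so in leukemic MEP 3. The part of these marker shifts in the changes of the members was not tested.

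Within complex I the 7 core genes, whose products carry the flavin and iron-sulfur clusters or lie beside them, had a median change of -0.90, and 3 were lower. The 28 accessory genes had a median of -0.39, and 2 were lower. With leukemic MEP 3 left out these medians were -0.48 and -0.09. The median SE was 0.32 for the core and 0.43 for the accessory genes, so equal changes were less readily called among the accessory genes. Ndufs1, which encodes the largest core subunit, measured 109, 66.3 and 65.9 FPKM in control MEP and 33.3, 36.4 and 33.7 in leukemic MEP. The leukemic values were close together and all below the controls, and Ndufs1 fell by 1.16 ± 0.23 (SE; adjusted p = 0.00283). Ndufv1, which binds NADH and flavin, measured 292, 360 and 286 FPKM in control MEP and 174, 182 and 86.4 in leukemic MEP. It fell by 1.15 ± 0.30 (adjusted p = 0.0143), and by 0.80 without leukemic MEP 3, its lowest library. The call was lost without control MEP 2 (0.0555).

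Core genes with negative estimates that did not pass were Ndufs3 (-1.17, adjusted p = 0.0780), Ndufv2 (-0.90, 0.0612), Ndufs7 (-0.73, 0.121) and Ndufs8 (-0.47, 0.304). In leukemic MEP, Ndufs3 measured 97.4, 106 and 23.2 FPKM, the last in the shallow replicate 3. Without that library the 4 estimates were -0.48, -0.47, -0.55 and -0.14.

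Of the accessory genes, Ndufa10 measured 395, 473 and 435 FPKM in control MEP and 196, 208 and 129 in leukemic MEP. All leukemic values were below all controls, and Ndufa10 fell by 1.31 ± 0.27 (adjusted p = 0.00418). Ndufa9 fell by 0.93 ± 0.25 (adjusted p = 0.0170), and its call was lost without control MEP 2 (0.0670) or 3 (0.0570). Ndufa5 had a larger point estimate, -1.42 ± 0.69, but did not pass (adjusted p = 0.151). It ran from 27.3 FPKM in leukemic MEP 3 to 239 in leukemic MEP 2, and the estimate was -0.46 without replicate 3. Ndufv3 had a positive point estimate of 0.49 (adjusted p = 0.266).

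Complex II is succinate dehydrogenase, the enzyme shared by the citrate cycle and the respiratory chain. Sdhd, a membrane anchor subunit, measured 699, 973 and 849 FPKM in control MEP and 403, 431 and 236 in leukemic MEP. The groups did not overlap, and Sdhd fell by 1.27 ± 0.26 (adjusted p = 0.00355). Sdha, the flavoprotein that oxidises succinate, measured 404, 280 and 270 FPKM in control MEP and 180, 177 and 148 in leukemic MEP. It fell by 0.90 ± 0.22 (adjusted p = 0.00961). Sdhc, the other anchor, fell by 0.73 ± 0.22 (adjusted p = 0.0281), but did not pass without control MEP 2 (0.111), control MEP 3 (0.0627) or leukemic MEP 3 (0.0510). Sdhb, the iron-sulfur subunit, had an estimate of -0.98 ± 0.36 and did not pass (adjusted p = 0.0620). In leukemic MEP it measured 454, 523 and 176 FPKM, and the estimate was -0.49 without replicate 3 (0.128).

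In complex III the lower genes were those of the redox subunits Uqcrfs1 and Cyc1 and of the core proteins Uqcrc1 and Uqcrc2. These are also the longest genes of the complex, at 1313 to 1882 bases. The genes that did not pass were 441 to 632 bases long, and all 9 estimates of the complex were negative. Function and gene length cannot be told apart here. Uqcrfs1, the Rieske iron-sulfur protein, measured 361, 499 and 493 FPKM in control MEP and 190, 181 and 193 in leukemic MEP. Its leukemic values were close together, replicate 3 included, and it fell by 1.24 ± 0.19 (adjusted p = 0.000675), and by 1.26 without replicate 3. Cyc1, the haem-bearing cytochrome c1, measured 357, 625 and 473 FPKM in control MEP and 202, 194 and 149 in leukemic MEP. It fell by 1.39 ± 0.25 (adjusted p = 0.00175). The core proteins Uqcrc1 and Uqcrc2 fell by 1.20 ± 0.27 (adjusted p = 0.00629) and 1.01 ± 0.20 (adjusted p = 0.00341). Uqcrc2 measured 288, 285 and 267 FPKM in control MEP and 160, 151 and 111 in leukemic MEP.

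Cycs, cytochrome c itself, was represented by few reads, 86, 73 and 89 in control MEP and 67, 100 and 0 in leukemic MEP. Its estimate of -0.84 ± 0.47 did not pass (adjusted p = 0.212) and was -0.19 without leukemic MEP 3. In 4 other mouse genes lies a near-identical copy of its reading frame, so its level is uncertain.

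In complex IV only Cox6b2, an isoform of the Cox6b subunit best known from testis, passed. It measured 85.8, 283 and 199 FPKM in control MEP and 48.6, 37.3 and 67.8 in leukemic MEP. The groups did not overlap although the controls were spread widely, and Cox6b2 fell by 1.75 ± 0.39 (adjusted p = 0.00655), and by 1.97 without leukemic MEP 3. Its share of the summed FPKM of Cox6b1 and Cox6b2 was 12.1%, 12.8% and 11.7% in control MEP. In leukemic MEP the share was 4.42% and 3.49% in replicates 1 and 2 and 11.4% in replicate 3. Control marrow held 7.09% to 8.47% and GFP+ marrow 5.18% ± 0.37. The share of replicate 3 was thus near those of control MEP and away from its own group, and no test was made on these shares.

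The principal subunit genes of complex IV did not pass. Cox4i1, Cox5a, Cox5b, Cox6a1, Cox7a2 and Cox8a had estimates of -0.58, -0.52, -0.88, -0.74, -0.48 and -0.17, with adjusted p from 0.176 to 0.788. In the fit lacking leukemic MEP 3 they were -0.46, -0.30, -0.45, -0.38, -0.33 and -0.04. In each of these 6 genes control MEP 1 was lower than leukemic MEP 1. The isoforms Cox4i2, Cox6a2 and Cox7a1, known from lung or from heart and skeletal muscle, stayed at or below 2.29 FPKM in every library. Cox7a2l had a positive estimate of 0.34 ± 0.19 and did not pass (adjusted p = 0.214).

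In complex V, Atp5b measured 1825, 1859 and 1615 FPKM in control MEP and 946, 854 and 944 in leukemic MEP. Replicates of both groups were tight, and Atp5b fell by 0.95 ± 0.22 (adjusted p = 0.00721), and by 0.97 without replicate 3. Atp5a1, the alpha subunit that alternates with it in the catalytic head, was also below the controls in every leukemic library, but its estimate of -0.58 ± 0.23 did not pass (adjusted p = 0.0847). Atp5c1, the central stalk, had -0.61 (adjusted p = 0.0695). Atp5f1, of the peripheral stalk, fell by 0.71 ± 0.20 (adjusted p = 0.0238). It did not pass without control MEP 2 (0.0794), control MEP 3 (0.102) or leukemic MEP 1 (0.0648).

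The c ring is encoded by 3 genes with the same mature product. Atp5g1 measured 39.8, 116 and 100 FPKM in control MEP and 41.2, 38.3 and 15.4 in leukemic MEP, so the groups overlapped at control MEP 1. It fell by 1.39 ± 0.43 (adjusted p = 0.0332), a call lost without control MEP 2 (0.130), control MEP 3 (0.120) or leukemic MEP 3 (0.0918). Atp5g3 fell by 0.96 ± 0.31 (adjusted p = 0.0401) and did not pass when any 1 of 9 libraries was left out, with adjusted p up to 0.153. Atp5g2, near 1 FPKM, had a positive estimate of 0.65 (adjusted p = 0.207). Atp5g1 made up 16.1% ± 2.16 of the summed FPKM of the 3 genes in control MEP, 12.6% ± 4.28 in leukemic MEP, 15.6% ± 2.38 in control marrow and 9.12% to 15.3% in GFP+ marrow, and the 4 ranges overlapped.

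**Figure D2:**
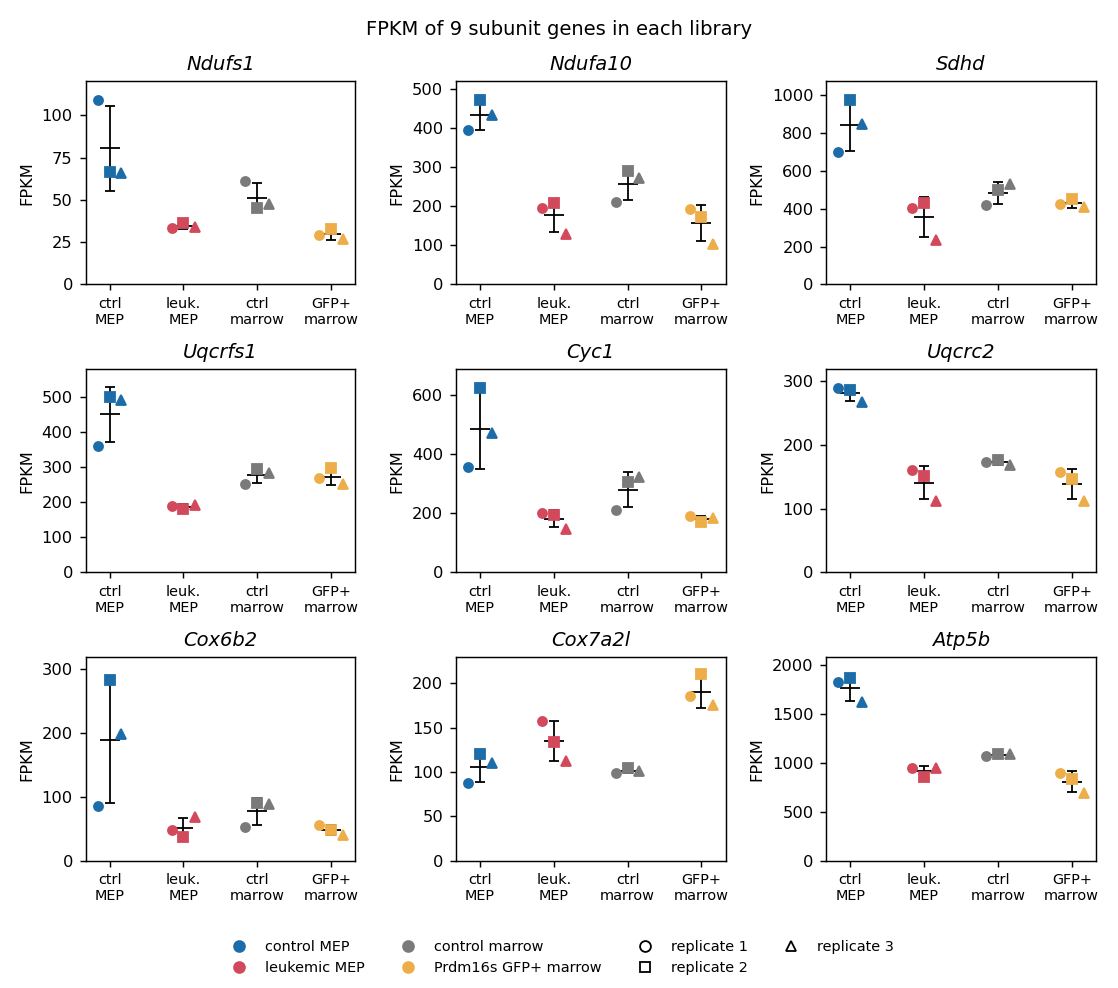
FPKM of 9 members (vertical axes from 0) in the 12 libraries; symbols are replicates, horizontal lines group means and bars the SD of 3 libraries. Uqcrfs1 lay between 181 and 193 FPKM in leukemic MEP against 361 to 499 in control MEP, and Cox7a2l between 176 and 210 in GFP+ marrow against 99.2 to 104 in control marrow.

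Members are short genes, and short genes varied more between libraries. Their median length, as recovered from the table, was 744.5 bases against 3081 for the other genes tested. Of the 28 members of at least 1 kb, 14 were lower in leukemic MEP (median change -0.85), against 12.7% of all genes of that length. Of the 50 shorter members, 3 were lower (6.00%, median -0.54), against 8.06% of all genes under 1 kb. When leukemic MEP 3 was left out the medians of the longer and shorter members were -0.52 and -0.17. The median SE was 0.26 for the longer and 0.42 for the shorter members.

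**Figure D3:**
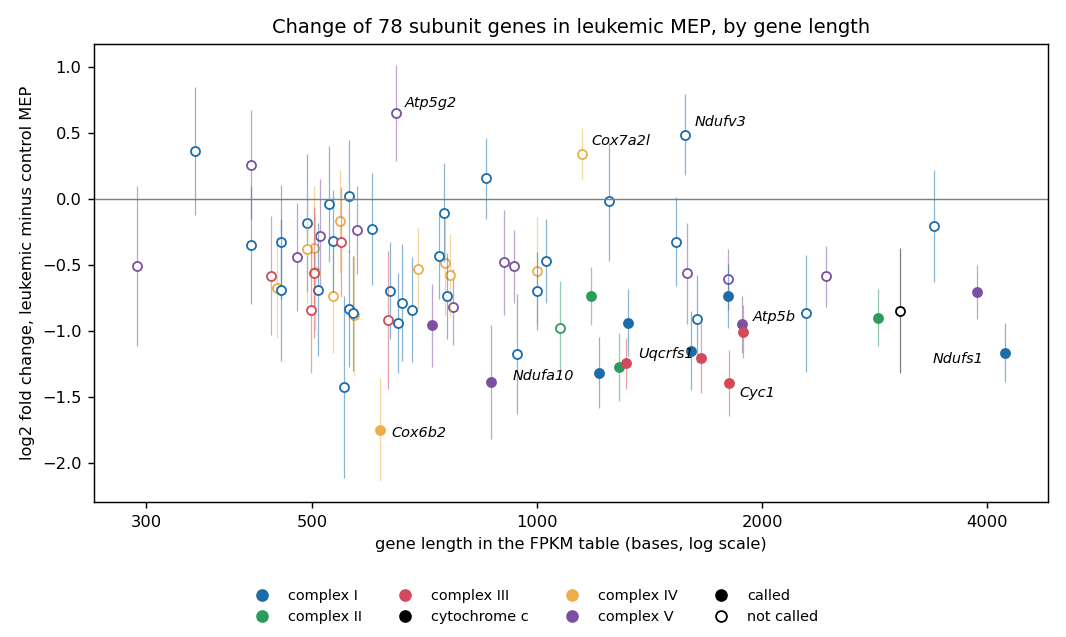
Log2 change from control to leukemic MEP of each of the 78 members against gene length in bases (log axis), coloured by complex, with bars of 1 SE and filled symbols for the 17 members below the adjusted p of 0.05. Of the filled symbols 14 lie at 1 kb or more, and 71 of 78 points lie below 0.

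The short-gene spread appeared in genes outside the respiratory chain as well. Over 992 other genes under 1 kb the median deviation from a gene's own mean over the 12 libraries was -0.44 in control MEP 1, 0.40 in control MEP 2 and -0.56 in leukemic MEP 3. For the members it was -0.37, 0.85 and -0.79. In an alternative chosen after seeing the data, the trend of log level with gene length was removed from each library before the fit. Then 37 members were lower, namely 16 of complex I, 4 of complex II, 5 of complex III, 5 of complex IV and 7 of complex V, and Cox7a2l was higher. The count was 36 lower with leukemic MEP 3 left out as well. Of all genes, 14.5% and 14.7% were lower in those fits.

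**Figure D4:**
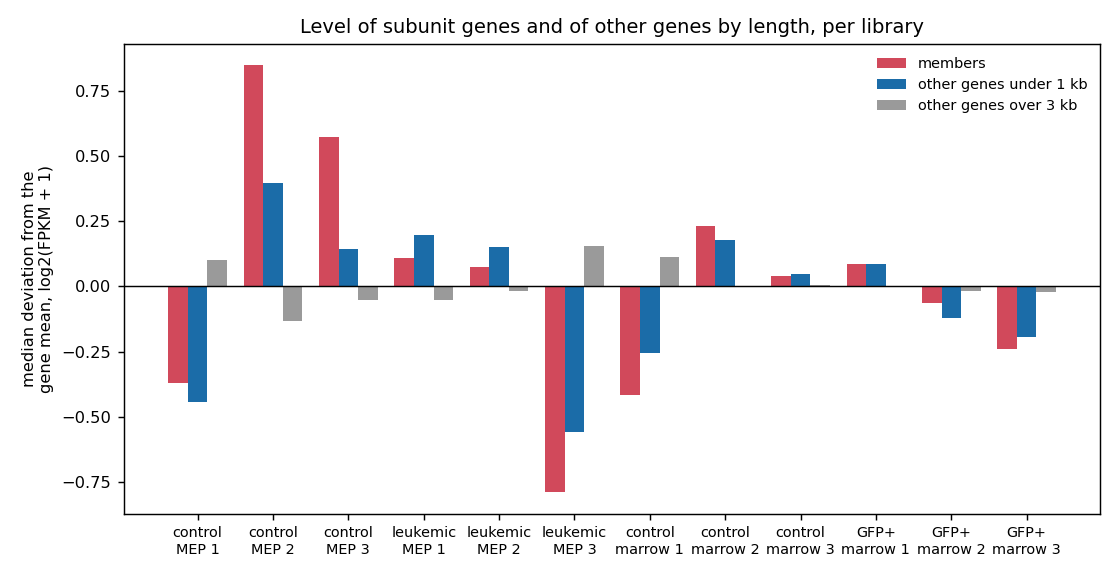
Median deviation of log2(FPKM + 1) from the gene's mean over 12 libraries, as bars per library, for the members, for 992 other genes under 1 kb and for 5863 other genes over 3 kb. Members and other short genes had the same sign in all 12 libraries, lowest in leukemic MEP 3 (-0.79 and -0.56) and highest in control MEP 2 (0.85 and 0.40), while long genes stayed between -0.13 and 0.16.

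GFP+ marrow, selected for GFP, was compared with control marrow, which was taken whole, so selection and genotype cannot be told apart here. Among the members 1 was higher and 0 were lower (limma; 1 and 4 at an unadjusted p below 0.05), against 3.02% higher and 6.03% lower of all genes. The median change of the members was -0.02, against -0.05 for all genes, with 35 estimates above and 43 below 0. Cox7a2l measured 99.2, 104 and 101 FPKM in control marrow and 186, 210 and 176 in GFP+ marrow. The groups did not overlap, and Cox7a2l rose by 0.90 ± 0.19 (adjusted p = 0.0128). The call was lost without control marrow 1 (0.0506), 2 (0.0527) or 3 (0.0569) or GFP+ marrow 2 (0.0535), with estimates from 0.82 to 0.92, and with libraries scaled to equal FPKM totals (0.66, adjusted p = 0.0719). Its change in MEP minus that in marrow was -0.55 and did not pass (adjusted p = 0.331).

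Several members that were lower in leukemic MEP did not pass in marrow with all 12 libraries in the fit. Ndufs1 measured 61.2, 45.5 and 47.4 FPKM in control marrow and 29.1, 32.9 and 26.6 in GFP+ marrow, which did not overlap. Its estimate was -0.77 ± 0.23 (adjusted p = 0.0540). Ndufa10, Cyc1, Sdha, Cox6b2 and Atp5g1 had estimates of -0.75, -0.60, -0.59, -0.65 and -0.68, with adjusted p from 0.114 to 0.373. Uqcrfs1 measured 252, 296 and 282 FPKM in control marrow and 268, 298 and 251 in GFP+ marrow, with an estimate of -0.02 (adjusted p = 0.967). When leukemic MEP 3 was left out of the fit, 2 members were lower in marrow and 1 was higher. Of all genes, 10.4% were lower and 8.23% higher there. The lower members were Ndufs1 (-0.77, adjusted p = 0.0269) and Ndufa10 (-0.75, 0.0388). With the length trend removed as well, 8 were lower and 2 higher, against 11.05% and 10.55% of all genes. The GFP+ libraries also held fewer erythroid transcripts, 52.1 to 158 FPKM against 682 to 972 in control marrow, and the part of this in the marrow values was not tested.

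Control MEP were also compared with control marrow. Here 3 of 78 members were higher in MEP (3.85%) and 0 lower, against 2.63% higher and 12.3% lower of all genes, so the share called higher was near that of all genes. The median of the members was 0.46, against 0.03 for all genes, and 76 of 78 estimates were positive. Leaving out 1 library at a time, the median of the members ran from 0.26 (without control MEP 2) to 0.78 (without control MEP 1), and was 0.27 without control marrow 1. Uqcrfs1 rose by 0.69 ± 0.19 (adjusted p = 0.0307) from marrow to MEP, Uqcrc2 by 0.69 ± 0.20 (0.0360) and Atp5b by 0.70 ± 0.22 (0.0466). Atp5b measured 1063, 1093 and 1091 FPKM in control marrow, below every control MEP library. None of the 3 passed without control MEP 2 or 3 or any 1 control marrow library, where Uqcrfs1 had an adjusted p from 0.0701 to 0.132. This comparison and that of leukemic with control MEP share the control MEP libraries, so their values are not independent.

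Leukemic MEP and GFP+ marrow, both of the leukemic genotype, were set side by side. Of the members 0 were higher and 0 lower (limma; 0 and 3 at an unadjusted p below 0.05), against 0.977% higher and 2.08% lower of all genes. Without leukemic MEP 3 the counts were again 0 and 0, against 5.56% higher and 9.96% lower of all genes. With all 12 libraries the median of the members was -0.13, against 0.00 for all genes. Its sign turned without leukemic MEP 3 (0.18), under equal FPKM totals (0.31, with all genes at 0.36), under quantile normalization (0.15), with array weights (0.03) and with voom (0.06). The largest estimates were those of Cycs (-1.08), Uqcrb (-0.71), Ndufb8 (-0.69), Atp5g2 (0.65) and Ndufs3 (-0.59), with adjusted p from 0.242 to 0.526. Without leukemic MEP 3 they were -0.43, -0.07, -0.11, 0.47 and 0.10, so the sizes rested largely on that library. Uqcrfs1 was lower in every leukemic MEP library than in every GFP+ library, with an estimate of -0.53 (adjusted p = 0.161).

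The change in MEP was then tested against the change in marrow. For 1 member, Uqcrfs1, the change was more negative in MEP, and for 0 it was more positive, against 0.366% and 4.52% of all genes. The difference for Uqcrfs1 was -1.22 ± 0.27 (adjusted p = 0.0249). It did not pass without control MEP 2 (0.0617), control MEP 3 (0.0903), leukemic MEP 1 (0.0518), GFP+ marrow 1 (0.0552), GFP+ marrow 2 (0.0668) or any 1 control marrow library (0.0582 to 0.0788). The estimates ran from -1.38 to -0.85 over all alternatives. For Sdhd the difference was -1.10 ± 0.36 and for Cycs -1.33 ± 0.67, neither of which passed (0.124 and 0.338). Without leukemic MEP 3 these were -0.83 and -0.68, while Uqcrfs1 stood at -1.24. The median difference over the members was -0.61, against 0.04 for all genes. It was -0.28 without leukemic MEP 3 and -0.22 under quantile normalization (all genes -0.12), and -0.95, -0.35 and -0.38 without control MEP 1, control MEP 2 and control marrow 1.

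**Figure D5:**
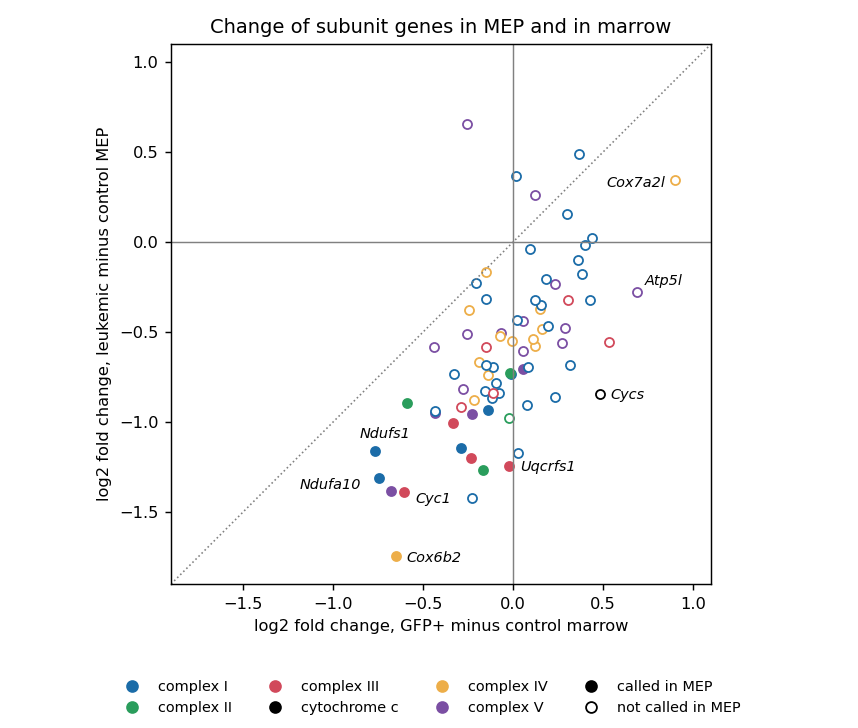
Log2 change of each member in MEP (leukemic minus control, vertical) against its change in marrow (GFP+ minus control, horizontal), with zero lines, a dotted line of equal change and filled symbols for members called in MEP. Of the 78 points 71 lie below 0 on the MEP axis, while marrow changes are spread about 0 (35 above, 43 below).

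Other mitochondrial genes, taken from lists of related function, were read in the same fit for leukemic against control MEP, where 12.3% of all genes were lower and 13.7% higher. Of 24 genes of the citrate cycle and pyruvate dehydrogenase 17 were lower and 1 higher (median -0.87). Fh1, fumarase, measured 178, 179 and 170 FPKM in control MEP and 66.6, 89.3 and 67.7 in leukemic MEP and fell by 1.24 ± 0.19 (adjusted p = 0.00061). Pdk3, a kinase that inhibits pyruvate dehydrogenase, rose by 0.70 ± 0.21 (adjusted p = 0.0278), while the related kinases Pdk1 and Pdk2 were among the 17 lower genes. Of 18 genes of mitochondrial proteases and import 10 were lower and 0 higher (median -0.97), led by the chaperone Hspd1, which fell by 1.94 ± 0.22 (adjusted p = 7e-05).

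Of 45 assembly factors of the complexes 12 were lower and 0 higher (median -0.61). Ndufaf1, which helps assemble complex I, measured 89.6, 112 and 117 FPKM in control MEP and 42.2, 46.9 and 34.6 in leukemic MEP and fell by 1.34 ± 0.19 (adjusted p = 0.00039). Of 19 genes of other electron input and carriers 6 were lower and 1 higher (median -0.52). Vdac1, the main pore of the outer membrane, fell by 0.83 ± 0.15 (adjusted p = 0.00209), and Prodh, proline dehydrogenase, rose by 1.41 ± 0.28 (0.00353). Of 18 regulators of respiratory genes and mitochondrial DNA 2 were lower and 0 higher (median -0.45), a share near that of all genes, namely Pprc1, a coactivator, which fell by 1.28 ± 0.29 (0.00685), and Tefm. Nrf1, Gabpa and Tfam, which act on respiratory genes or mitochondrial DNA, had estimates of -0.50, -0.42 and -0.76 and did not pass. Without leukemic MEP 3 the lower counts of these 5 lists, in the order given, were 16, 9, 8, 6 and 1 and the medians -0.84, -0.81, -0.34, -0.17 and -0.45. They were 11, 5, 5, 2 and 1 without control MEP 2, and 9, 6, 4, 2 and 1 without control MEP 3. Of all genes, 12.1% were lower without leukemic MEP 3, 8.17% without control MEP 2 and 8.04% without control MEP 3. In GFP+ against control marrow the lists had 1, 2, 0, 0 and 1 lower genes and 0 higher, where 6.03% of all genes were lower. The genes lower there were Dlst, Phb2, Hspd1 and Pprc1.

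Members varied together across libraries. The median correlation of a member with the mean of the others over the 12 libraries was 0.865 (Pearson r on log2 values), and 50 of 78 members exceeded 0.8. Uqcrq was the highest, at 0.985. The lowest were Atp5g2 (-0.16), Cox7a2l (0.02), Ndufs1 (0.23), Ndufv3 (0.29) and Sdha (0.31). The libraries share depth and the short-gene shift described above, so these are descriptions. Outside the chain, the genes most like the mean of the members, among 5548 candidates, were Polr2j (0.979), Tomm6 (0.976), Mrpl30 (0.971), Chchd2 (0.970) and Romo1 (0.970).

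The 78 genes lie on 19 chromosomes. In the mouse assembly GRCm38, Uqcrfs1 spans chr13:30540312-30545316, Cyc1 chr15:76343513-76346260, Ndufs1 chr1:63143592-63176822, Sdhd chr9:50596340-50603849, Atp5b chr10:128083307-128090388, Cox6b2 chr7:4751792-4753094 and Cox7a2l chr17:83501917-83514333. The gene bodies of Ndufs1, Uqcrc2, Atp5f1 and Atp5j are among those that overlap a gene on the opposite strand. Where counting ignored strand, reads from a shared stretch cannot be told apart from that neighbour's. Whether exons overlap was not examined. For 19 members another gene holds a near-identical copy of the reading frame. Among those, Cycs, Atp5g2, Atp5l and Cox7c, all with low levels, are the least certain.

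Promoters of the members were searched for letters bound by factors known for respiratory genes. RefSeq promoter windows of GRCm38.p6, from 250 bases before to 50 after the start, were matched for 66 members. Both strands were read. The NRF1 motif GCGCATGCG was found in 9 members (13.6%), against 4.22% of other tested genes and 1.75% of all windows. The YY1 motif AAGATGGCG was found in 7 (10.6%, against 3.82% of other tested genes and 461 of all 32851 windows), and 6 of the 7 matches lay 22 to 35 bases past the start. The ESRRA motif TCAAGGTCA was found in 2 (3.03%, against 0.296% and 0.423%), Sdhd and Atp5g3. The GABPA motif CCGGAAGT was found in 5 (7.58%, against 9.84% and 3.89%) and the SP motif GGGGCGGGG in 12 (18.2%, against 24.3% and 11.4%). These are matches of letters only.

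The 150 bases before the start of 4 members are shown, chosen after the matches were seen. A window with each of 3 motifs is set beside that of Uqcrfs1, the member whose change differed between MEP and marrow. The Uqcrfs1 window held none of the 5 motifs, which was also so for many other members, Sdha, Ndufv1 and Cox7a2l among them. Capitals mark the match, on either strand. The Cycs window (chr6:50566570-50566719, minus strand) holds the NRF1 letters 61 bases before the start, the Uqcr11 window (chr10:80406822-80406971, minus strand) the GABPA letters 66 bases before and the Atp5b window (chr10:128083157-128083306, plus strand) the SP letters 47 bases before. The Uqcrfs1 window is chr13:30545317-30545466 on the minus strand. Uqcr11 also had an NRF1 match, which begins 5 bases before its start and runs past the end of the stretch shown.
Cycs: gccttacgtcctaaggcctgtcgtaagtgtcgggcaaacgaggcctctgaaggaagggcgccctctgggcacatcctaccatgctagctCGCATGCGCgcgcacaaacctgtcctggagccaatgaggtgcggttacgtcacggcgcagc
Uqcr11: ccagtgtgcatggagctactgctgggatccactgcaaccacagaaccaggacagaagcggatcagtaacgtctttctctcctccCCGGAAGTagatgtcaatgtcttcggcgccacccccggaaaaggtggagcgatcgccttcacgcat
Atp5b: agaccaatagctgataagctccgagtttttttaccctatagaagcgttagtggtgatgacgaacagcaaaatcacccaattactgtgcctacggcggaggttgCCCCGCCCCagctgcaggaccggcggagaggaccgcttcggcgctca
Uqcrfs1: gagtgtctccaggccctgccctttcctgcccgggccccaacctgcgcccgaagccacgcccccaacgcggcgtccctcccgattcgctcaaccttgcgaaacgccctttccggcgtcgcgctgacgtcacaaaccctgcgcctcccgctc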

How the data were processed

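Smart-seq2 RNA-seq of 12 libraries, 3 per group, was analysed. The deposited table holds FPKM per gene, made by the authors with CASAVA, bcl2fastq, STAR 2.5.3a and DESeq2 1.18.1 on mm10, per the submitters' processing notes. The sources used here do not give the counter or the annotation. Low values were whole multiples of a gene's step, and whole reads could be recovered for all 16728 genes above 0, which gave depth and gene length. Genes of at least 1 FPKM in 3 or more libraries (11462) were fitted together as log2(FPKM + 1) with limma 3.58.1 (trend; R 4.3.3; 8 residual degrees of freedom), with Benjamini-Hochberg adjustment over all genes and a threshold of 0.05. The fit was tested on simulated data. Members and lists were chosen with earlier results of these data known. The text names the core subunits, the complex II genes, the redox and core genes of complex III, Cycs, the principal complex IV and V genes and their isoforms, the called member with the smallest p per complex and direction, the 5 largest changes per comparison and the list gene with the smallest p per direction. Further members are named where they were called, except that 1 member is counted but not reported here by name. Copies were sought with blastn 2.17.0. Alternatives covered scaling, pseudocount, filter, samples in the fit, weights, voom on the recovered reads, a replicate block, leaving out each library and removal of the length trend.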

Additional observations from a re-analysis of the deposited data

Results flagged for a closer look

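For Uqcrfs1 the change from control to leukemic MEP differed from the change from control to GFP+ marrow, by -1.22 on the log2(FPKM + 1) scale in a test of the difference itself (limma, adjusted p = 0.0249). The call was lost in 9 of 22 alternatives, with adjusted p up to 0.0903. All 3 leukemic MEP libraries lay below all 3 control MEP libraries, as for 19.7% of all genes tested, while the marrow groups overlapped.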

How the results depend on the processing

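Over 23 alternatives (22 for the difference of changes, which could not be fitted from the compared groups alone) no called value changed sign. Of the 17 members lower in leukemic MEP, Cyc1, Ndufa10, Ndufs1, Uqcrc2 and Uqcrfs1 were called in all 23. Counts of the 78 members called in either direction were 17 for leukemic against control MEP, 1 for marrow, 3 for control MEP against control marrow, 0 for leukemic MEP against GFP+ marrow and 1 for the difference of changes. Of all genes 13.7% were higher and 12.3% lower for leukemic against control MEP, and 9.05%, 15.0%, 3.05% and 4.89% were called in either direction for the others in that order. A fit of only the groups compared gave 5, 3 and 7 for the comparisons named before leukemic MEP against GFP+ marrow (14.8%, 15.4% and 31.8% of all genes). Array weights gave 35, 5, 44, 2 and 11 (53.7%, 30.1%, 48.1%, 28.7% and 25.9% of all genes). Of those 35 members 34 were lower, against 25.3% lower of all genes. Scaling to equal FPKM totals gave 2 for marrow, both lower (Cyc1 and Ndufs1), with the call of Cox7a2l lost, and 9 for control MEP against marrow (9.07% and 16.7% of all genes). Voom on recovered reads gave 3 and 9 there (16.6% and 23.8%). Quantile normalization gave 3 for marrow, 1 higher and 2 lower, and 0 for the difference of changes (8.77% and 3.16%). Removal of the length trend, chosen after seeing the data, gave 38, 3, 12 and, for the difference, 2 (29.2%, 10.3%, 17.6% and 5.26%). With leukemic MEP 3 left out as well, also chosen after seeing the data, it gave 37, 10, 30, 3 and 5 (30.5%, 21.6%, 28.2%, 17.3% and 11.4%). Leaving out 1 library at a time gave 10 to 24, 0 to 3, 0 to 10, 0 throughout, and 0 to 1. Of all genes, 16.9% to 29.5%, 4.2% to 18.6%, 9.2% to 24.4%, 0.4% to 15.5% and 2.3% to 9.5% were called there. The highest count for MEP, 24, came without control MEP 1 and the lowest, 10 and 11, without control MEP 2 and 3. The medians were -0.92, -0.41 and -0.56. All members called in those fits were lower, against 9.68%, 8.17% and 8.04% lower of all genes. With leukemic MEP 3 left out the marrow count was 3, 1 higher and 2 lower, and that for control MEP against marrow 10 (18.6% and 24.4% of all genes). The cause of these moves was not tested.

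Equal totals moved the median of all genes in marrow from -0.05 to -0.25, with the members at -0.26 there. Atp5g1's share of c-subunit reads, not scaled for length, was 18.7% in control MEP and 18.2% in control marrow. Deviations of same-numbered replicates correlated at -0.16, -0.05 and -0.15 for leukemic and control MEP, 0.02, -0.06 and 0.02 for the marrow groups, 0.50, 0.29 and 0.07 for control MEP and control marrow, and 0.09, 0.22 and 0.15 for leukemic MEP and GFP+ marrow. In the last of these each leukemic MEP library correlated best with the GFP+ library of its own number, a hint from the data only. No comparison had all 3 above 0.1, and the labels do not tie a number to a mouse or day, so the numbers were not taken to pair the samples. With the replicate number as a block the counts were 17, 1, 2, 0 and 1. With 3 libraries a group and a median SE of 0.39 over the members, many estimates near -0.5 lay within their error. Leukemic MEP 3 held 7819 reads of all members and GFP+ marrow 2 held 20484, against at least 127665 in the others.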
